A study of Homo sapiens with 3 samples.

Results

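The loci described here are those of 6 genes that encode subunits of the cAMP-dependent protein kinase PKA: the catalytic subunit genes PRKACA and PRKACB, and the regulatory subunit genes PRKAR1A, PRKAR1B, PRKAR2A and PRKAR2B. Each locus is a window on hg19 that covers the gene body and about 10 kb on either side. The windows were set by gene name and not by any measured value. The choice of these genes was made with earlier results of these data known. Together the 6 windows span 722 kb. They held 7 of the 9476 HDAC1 summits of untreated cells and 9 of the 11553 HDAC1 summits of H89-treated cells, which is 16 of 21029 in all. The summits come from CUT&Tag, in which an antibody directs a tagging transposase to its target on chromatin. It was performed in HepG2, a human hepatocellular carcinoma line. The control library is labelled wild type without H89 and the treated library wild type with H89, and an IgG library came from untreated wild-type cells. That the antibody was against HDAC1 is known from the title of the series, and the labels give neither a dose nor a duration of H89. There was 1 library per condition, so no difference below has a replicate check and H89 was not tested against the control. The IgG library was not analysed here, read depth is unknown, and intervals are exact 95% intervals that cover counting error only.

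PKA is held inactive as a complex of catalytic and regulatory subunits. When cAMP binds the regulatory subunits, the catalytic subunits become active and phosphorylate targets such as the transcription factor CREB, which binds the cAMP response element (CRE) in promoters. In liver cells this pathway carries the glucagon signal. H89 competes with ATP at the catalytic subunits, and it is also known to inhibit other kinases. HDAC1 is a class I histone deacetylase that acts within corepressor complexes. The data concern HDAC1 signal on the DNA of these genes, and neither PKA activity nor transcript levels were measured.

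The promoters of the 4 subunit genes that had a summit near the gene start are shown because HDAC1 was called there in at least 1 list. The share of all gene starts with such a summit was not counted, because no hg19 gene annotation was used. So 4 of the 6 genes is not shown to be unusual. The sequences are the 250 bases upstream of the outermost annotated start, from RefSeq on GRCh38.p14, another build than that of the summits, so no summit was placed on a base of them. They read 5′ to 3′ on the gene's own strand, and capitals mark GC boxes (GGGCGG) and the CRE core (TGACG) on either strand. PRKACA lies on the minus strand (chr19:14117763-14118012), PRKACB on the plus strand (chr1:84077829-84078078), PRKAR1A on the plus strand (chr17:68511750-68511999) and PRKAR1B on the minus strand (chr7:727677-727926).
PRKACA: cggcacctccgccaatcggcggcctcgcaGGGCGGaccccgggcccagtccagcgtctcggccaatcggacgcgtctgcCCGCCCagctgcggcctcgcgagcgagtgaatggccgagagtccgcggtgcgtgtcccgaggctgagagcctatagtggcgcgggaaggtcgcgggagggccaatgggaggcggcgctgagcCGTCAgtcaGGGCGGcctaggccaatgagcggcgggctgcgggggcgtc
PRKACB: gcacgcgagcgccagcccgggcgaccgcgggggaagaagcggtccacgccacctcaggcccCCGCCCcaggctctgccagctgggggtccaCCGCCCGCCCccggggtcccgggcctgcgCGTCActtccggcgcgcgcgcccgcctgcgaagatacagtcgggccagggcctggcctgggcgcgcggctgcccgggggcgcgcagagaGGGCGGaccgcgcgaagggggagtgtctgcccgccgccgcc
PRKAR1A: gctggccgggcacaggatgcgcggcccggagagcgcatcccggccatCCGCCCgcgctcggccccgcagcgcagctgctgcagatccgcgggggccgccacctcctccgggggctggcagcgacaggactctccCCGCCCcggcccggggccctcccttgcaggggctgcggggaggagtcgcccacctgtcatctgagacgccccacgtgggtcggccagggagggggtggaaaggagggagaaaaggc
PRKAR1B: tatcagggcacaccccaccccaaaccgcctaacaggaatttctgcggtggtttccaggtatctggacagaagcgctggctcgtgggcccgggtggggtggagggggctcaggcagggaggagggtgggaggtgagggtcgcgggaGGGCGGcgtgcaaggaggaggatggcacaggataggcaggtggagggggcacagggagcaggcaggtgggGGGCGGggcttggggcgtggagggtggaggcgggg
PRKAR1A CRE: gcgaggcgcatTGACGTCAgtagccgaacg
The last line shows 30 bases (chr17:68512370-68512399, GRCh38.p14, plus strand) around the full CRE, TGACGTCA, in capitals. Its first base lies 49 bases upstream of the start numbered 3 of the 5 annotated PRKAR1A starts, counted in the direction of transcription. A full CRE was found upstream of 1 of the 20 annotated starts of the 6 genes, and upstream of 1.65% of all 35116 RefSeq promoters searched over the same length. A match describes letters only and is no evidence of a bound factor.

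Across the 6 loci, HDAC1 summits were listed in 4 windows in the control and in 5 with H89. PRKACA, PRKAR1A, PRKAR1B and PRKAR2B held summits in both lists, PRKACB only in the H89 list, and PRKAR2A in neither. With 9 summits against 7, the ratio of H89 to control was 1.29 (interval 0.426 to 4.06) in the windows and 1.22 (1.19 to 1.25) over the whole lists. These intervals treat every summit as independent, although many sites are in both lists. With 1 library each and unknown depth, they do not measure an effect of H89. Per Mb, the windows held 9.70 summits in the control and 12.5 with H89, and the autosomes and chromosome X together 3.03 and 3.67. The latter include gene-poor DNA, so the higher density is not shown to be particular to PKA genes. As background, the genome was cut into adjoining windows of each locus's own length. Whole chromosome lengths were used here and for the genome densities, without removing assembly gaps, where no summit can be called. The background values are therefore too low by an amount that was not measured. At least 1 summit was found in 10.4% of control and 12.0% of H89 windows of the PRKACA length, and in 26.5% and 29.3% of those of the PRKACB length. For PRKAR1A the shares were 9.49% and 11.0%, for PRKAR2A 20.3% and 22.8%, for PRKAR1B 27.9% and 31.1%, and for PRKAR2B 22.3% and 25.1%.

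**Figure D1:**
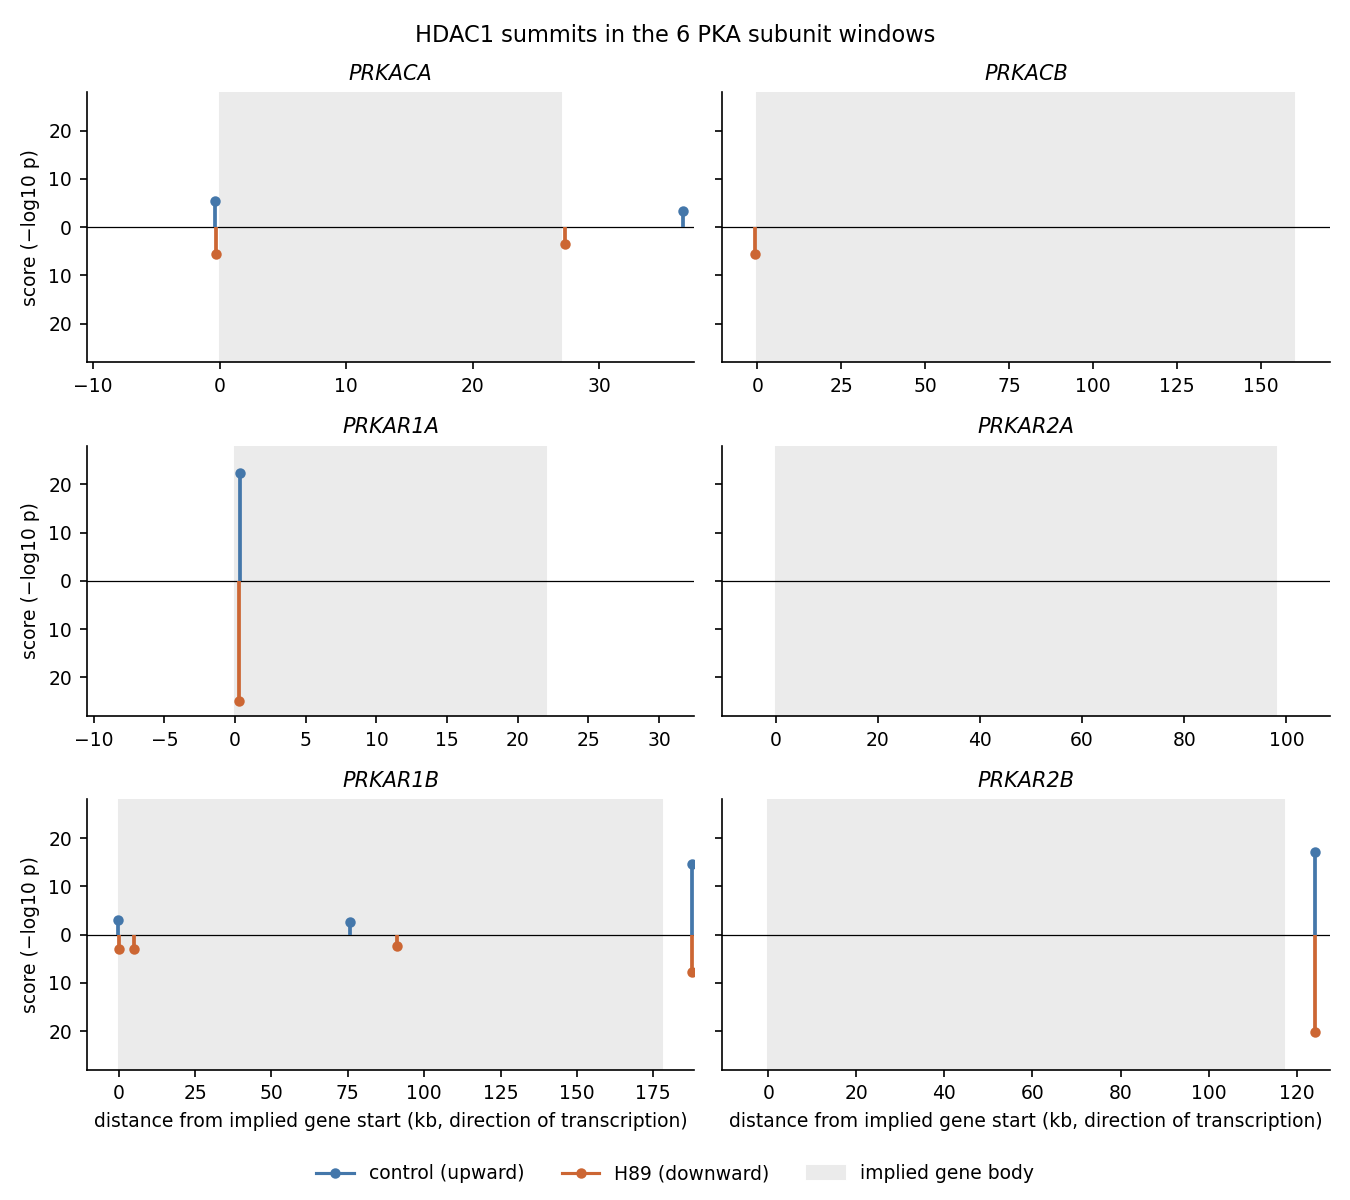
HDAC1 summits in the 6 windows, by distance in kb from the gene start that each window implies (x) and score, read as −log10 p (y), with control summits drawn upward and H89 summits downward from 0 and the implied gene body shaded. Among these windows PRKAR1A carries the highest summit in each list, at its start, the highest summits of the PRKAR1B and PRKAR2B windows lie beyond the gene bodies, and PRKAR2A has none.

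The score of a summit is taken as −log10 of an unadjusted p-value. Many scores, 41.6% of the control list and 41.3% of the H89 list, fall on the steps of a Poisson upper tail with 1 fixed mean. That mean is 0.0269 in the control and 0.0271 with H89. It was set so that the commonest score between 5 and 6 is the step of 3 counts, which therefore matches by construction. The steps from 2 to 11 counts matched listed scores to within 4.63e-05 in both lists. On this reading a score on a step gives the number of overlapping fragments behind the call, and 3 of 7 control and 6 of 9 H89 summits in the windows could be read so, from this mean or from a second one (0.0473 and 0.0477). The remaining scores were not translated. The counts take the tail to include the count itself. If the tail used by the unknown peak caller leaves it out, each count would be 1 lower and its interval would shift. The median score in the windows was 5.51 in the control and 5.49 with H89, against 4.77 and 4.76 over the lists. A score of 10 or more was reached by 3 of 7 control summits and 2 of 9 H89 summits, against 6.49% and 9.89% of the lists.

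PRKACA encodes the widely expressed catalytic subunit Cα. Its window (chr19:14192-14239 kb, band 19p13.12) held 2 summits in each list. At the gene start, the control summit at chr19:14229384 scored 5.51 and the H89 summit at chr19:14229289 scored 5.50, and they lay 95 bp apart. The scores were equal within 0.1. Both summits lay within 0.4 kb of the implied start, 10 kb inside the window's edge. Window edges are rounded to kb, so a summit cannot be called upstream or downstream of a start at this distance. Of the other 2 summits, each listed once, the control summit at chr19:14192403 scored 3.37 and lay 403 bp inside the window's edge. The H89 summit at chr19:14201756 scored 3.44, the step of 2 counts, and lay at the implied end of PRKACA, next to which SAMD1 is annotated in GRCh38.p14. These summits were 9.35 kb apart and were not partners. The sequence upstream of the PRKACA start shown above holds 3 GC boxes, 1 CRE core and 4 CCAAT boxes (CCAAT on either strand).

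PRKACB encodes the catalytic subunit Cβ, which has several isoforms from alternative starts. Its window (chr1:84534-84714 kb, band 1p31.1) held no control summit and 1 H89 summit. That summit, at chr1:84543473, scored 5.49 and lay 0.527 kb from the implied start. Its score is the step of 3 counts (exact Poisson interval 0.619 to 8.77) and the commonest score between 5 and 6 in the H89 list, shared by 1447 summits. Such a call rests on few fragments, so the control library is not shown to lack HDAC1 there. The surroundings were sparse. Band 1p31.1 held 9 control and 10 H89 summits, or 0.592 and 0.658 per Mb. The nearest control summit was 429 kb away, and toward lower coordinates the next H89 summit outside the window was 6089 kb from its edge. Of the 5 annotated PRKACB starts, the outermost had 80.8% GC and 37 CG dinucleotides in its 250 upstream bases, and the other 4 had 30.4% to 33.2% GC and at most 5 CG dinucleotides. The window held no other summit.

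PRKAR1A encodes RIα, the regulatory subunit whose loss is known to leave PKA overactive in Carney complex. Its window (chr17:66498-66540 kb, band 17q24.2) held the highest-scoring summit of all 6 loci in both lists. The control summit at chr17:66508353 scored 22.3 and ranked 36 of 9476, a rank shared by the 14 summits with that score. The H89 summit at chr17:66508305 scored 24.8 and ranked 70 of 11553, shared by 15 summits. The summits lay 48 bp apart and within 0.4 kb of the implied start, and the window held no other summit in either list. The score was 2.58 higher with H89. On the step reading these are 10 counts in the control (exact Poisson interval 4.80 to 18.4) and 11 with H89 (5.49 to 19.7). Each count lies inside the interval of the other, but the difference between them was not tested. A rise of at least 2.58 was seen in 16.1% of all 8189 pairs of mutually nearest summits within 1000 bp. Among the 30 pairs whose control score was within 2 of that of PRKAR1A, the median difference was 3.42 and 80.0% were higher with H89. This is the gene with the full CRE shown above, upstream of an inner start. In GRCh38.p14 the annotated extent of PRKAR1A overlaps the protein-coding genes ARSG, WIPI1 and FAM20A, and their starts were not placed on hg19, so the site is described by its distance to the implied PRKAR1A start alone.

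**Figure D2:**
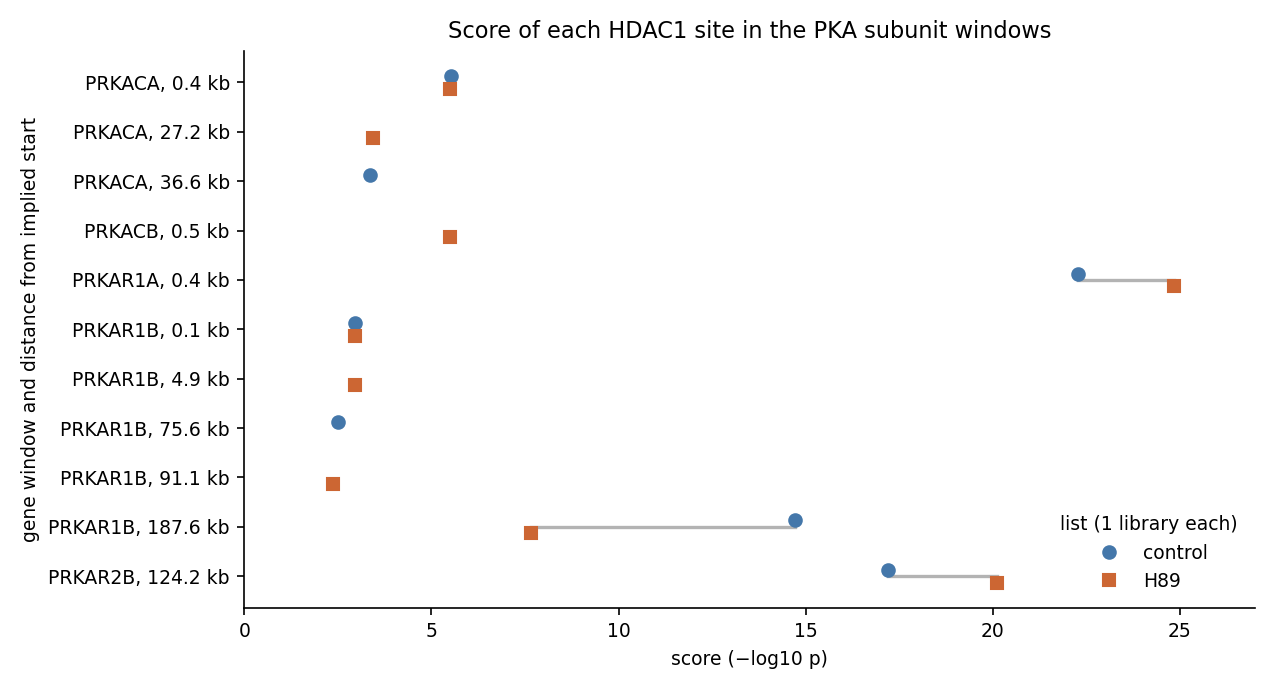
Score of each HDAC1 site in the PKA subunit windows, read as −log10 p (x), by gene window and distance from the implied start (y), with circles for the control list, squares for the H89 list and a grey line joining partners. The PRKAR1A site moves from 22.3 to 24.8, the PRKAR1B site at 187.6 kb from 14.7 to 7.66, and 6 summits have no partner.

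PRKAR1B encodes RIβ, a regulatory subunit best known from brain. Its window is the longest (chr7:579-777 kb, band 7p22.3) and held 3 control and 4 H89 summits. At the start, the control summit at chr7:767097 and the H89 summit at chr7:767051 lay 46 bp apart and both scored about 3, with 2.97 in the control and 2.96 with H89. Both scores are steps of 2 counts of the second mean. The gene DNAAF5, a dynein assembly factor, overlaps PRKAR1B on the opposite strand in GRCh38.p14, so the summits cannot be assigned to either start. Within the implied gene body, a control summit at chr7:691420 scored 2.51, an H89 summit at chr7:675861 scored 2.37 and a second H89 summit at chr7:762131 scored 2.96. None of these 3 had a partner. The lowest listed scores were 2.03 in the control and 2.02 with H89.

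The strongest site of the PRKAR1B window, beyond the implied end of the gene, scored lower with H89. The control summit at chr7:579368 scored 14.7 and the H89 summit at chr7:579324, 44 bp away, scored 7.66. The difference was -7.05. A fall of at least this size was found in 6 of 8189 pairs (0.0733%), this one included. It was the largest among the 369 pairs of chromosome 7. Most pairs could not fall this far, because no H89 score was below 2.02 and 6.49% of control summits scored 10 or more. The share among pairs able to fall this far was not counted. Among the 180 pairs whose control score was within 2 of 14.7, the median difference was 2.45 and the lowest 5% lay below -3.82. On the step reading the site held 7 counts in the control (2.81 to 14.4) and 4 with H89 (1.09 to 10.2). These intervals overlap, but they leave out that only called summits are listed. The difference between the counts was not tested. The site lies 188 kb from the implied start of PRKAR1B and only 368 bp inside the window's edge, so it belongs to the locus by the 10 kb flank alone. Just outside that edge, at chr7:578196, the H89 list held a further summit that scored 3.44, while the next control summit on that side was 66.9 kb away. PDGFA, a growth factor gene, is the next protein-coding gene on that side in GRCh38.p14.

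PRKAR2B encodes RIIβ, a regulatory subunit known for its role in fat tissue and brain. Its window (chr7:106675-106812 kb, band 7q22.3) held 1 summit in each list, and neither was at the gene. The control summit at chr7:106809188 scored 17.2 and the H89 summit at chr7:106809206, 18 bp away, scored 20.1. The difference of 2.94 compares with a median of 3.08 among the 75 pairs whose control score was within 2 of it. A rise of at least 2.94 was seen in 14.6% of all pairs. The site lay 124 kb from the implied start and beyond the implied end, on the side where HBP1, which encodes a transcriptional repressor, is the next protein-coding gene in GRCh38.p14. The label of this locus therefore names a gene that had no summit in its implied body or at its start in either list. The 250 bases upstream of the PRKAR2B start had 81.6% GC, 36 CG dinucleotides and 3 GC boxes (PRKACA and PRKACB had 34 and 37 CG dinucleotides).

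PRKAR2A encodes RIIα, which anchors PKA to A-kinase anchoring proteins as RIIβ does. Its window (chr3:48778-48896 kb, band 3p21.31) held no summit in either list. The band as a whole was not poor in summits, with 60 in the control and 76 with H89, or 9.38 and 11.9 per Mb. The summits nearest to the implied start were 50.2 kb away in the control and 49.2 kb away with H89. At the other end, a site lay 0.315 kb outside the window's edge in the control (chr3:48777685, score 3.37) and 0.309 kb outside it with H89 (chr3:48777691, score 7.98). A window drawn slightly wider would have counted this site. No summit in the list means no call at the authors' threshold, and a level of HDAC1 below it was not measured.

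The outermost annotated starts lay above the median in GC, some only slightly, while the other starts of the same genes varied. Of all promoters, 46.0% had at least the GC content of PRKAR2A (60.0%). For CG dinucleotides, 48.5% had at least the 12 of PRKAR1B. In the 250 bases upstream of the outermost annotated start, all 6 genes lay above the median of the RefSeq promoters in GC content (60.0% to 81.6%, median 58.0%) and in CG dinucleotides (12 to 37, median 11). Over all 20 annotated starts of the genes, 15 lay above the median in GC content and 12 in CG dinucleotides, and the 14 other starts ranged from 30.4% to 82.0% GC. GC boxes were found upstream of 10 of the 20 starts, against 42.6% of all promoters, which likewise include several starts per gene. These 10 were all 6 outermost and 4 of the 14 other starts. The CRE core, which the full CRE contains, was found upstream of 5 of the 20 starts, against 21.2%, and a CCAAT box upstream of 4, against 32.0%. The 4 genes with a summit near the start had 69.2% to 80.8% GC, and the 2 without one lay on either side, at 60.0% and 81.6%. In CG dinucleotides the 2 genes lay within the range of the 4, at 19 and 36 against 12 to 37.

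**Figure D3:**
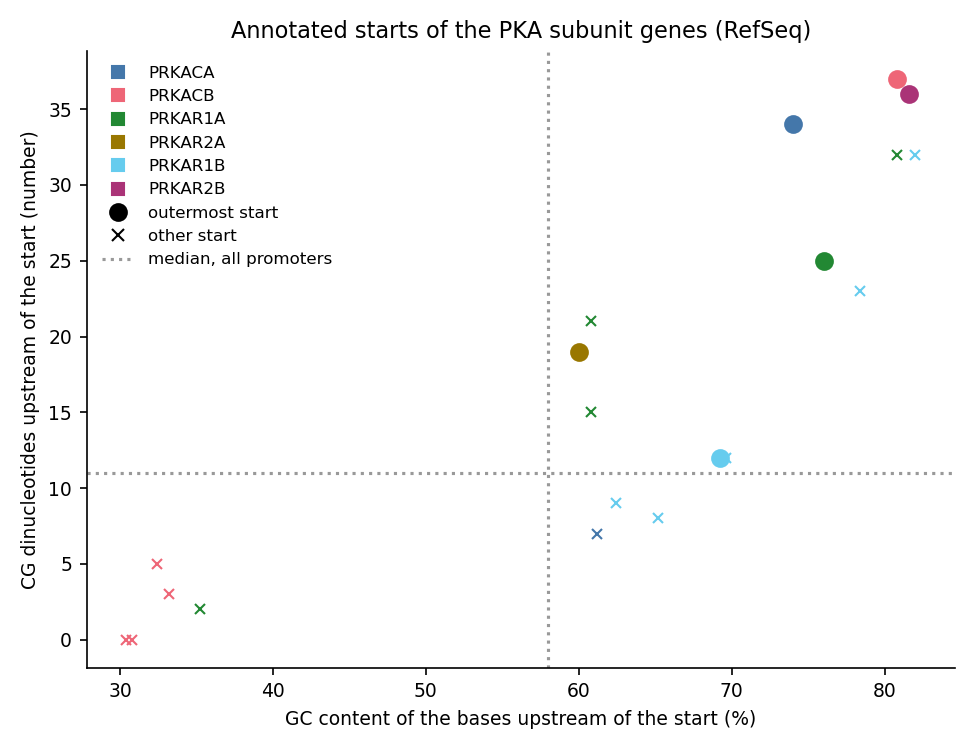
GC content in percent (x) and number of CG dinucleotides (y) of the 250 bases upstream of each annotated start of the 6 genes in GRCh38.p14, with circles for the outermost start of each gene, crosses for its other starts and dotted lines at the medians of all RefSeq promoters. All 6 circles lie above both medians, including PRKAR2B (36 CG dinucleotides) and PRKAR2A (19), which had no summit near the start, while several crosses lie below them.

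HDAC1 sites called in both lists were found at PRKACA, PRKAR1A, PRKAR1B and in the PRKAR2B flank. A partner in the H89 list, within 1000 bp, was found for 5 of the 7 control summits (71.4%, interval 29.0% to 96.3%), against 87.6% of the control list. Conversely, 5 of the 9 H89 summits (55.6%, interval 21.2% to 86.3%) had one in the control list, against 72.2% of the H89 list. Both intervals include the share of the whole list, but this is no test of the windows. The 2 shares rest on the same 5 pairs, and the intervals treat summits as independent. The 6 summits without a partner scored from 2.37 to 5.49, and all sites that scored above 5.51 in either list had a partner. The 5 pairs lay 18 to 95 bp apart, against a median offset of 53 bp over all pairs.

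The 5 pairs did not move one way. With H89, 2 scored higher by more than 0.1 (PRKAR1A and the PRKAR2B flank), 1 scored lower (the PRKAR1B flank), and 2 were equal (the starts of PRKACA and PRKAR1B). The interval of the share scoring higher, 2 of 5, was 5.27% to 85.3%, against 50.2% of all pairs, while 14.5% of all pairs scored lower and 35.3% were equal. The median difference was -0.01 in the PKA windows and 0.20 over all pairs. At gene starts the pairs were 1 higher (PRKAR1A) and 2 equal, so the only fall lay outside the gene bodies.

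**Figure D4:**
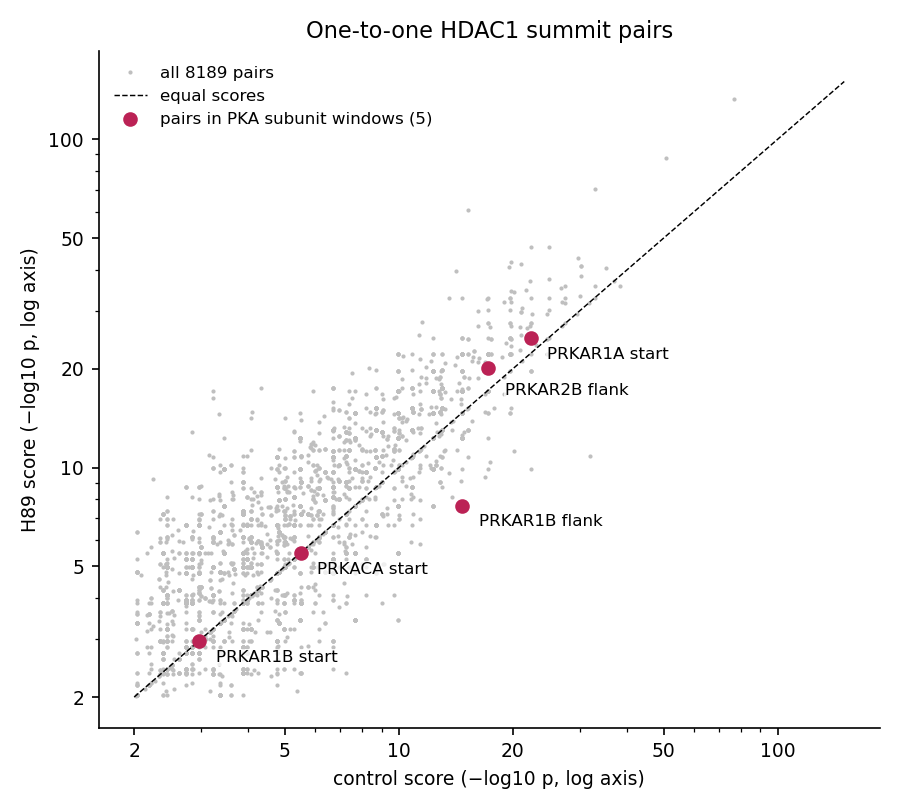
Control score (x) against H89 score (y), both read as −log10 p on log axes, for all 8189 pairs of mutually nearest summits (grey) and the 5 pairs in the PKA subunit windows (red), with a dashed line at equal scores. The PRKAR1B flank (14.7 and 7.66) lies at the lower edge of the cloud, PRKAR1A and the PRKAR2B flank lie above the line, and the starts of PRKACA and PRKAR1B lie on it.

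By role, the starts of the catalytic subunit genes scored 5.51 and 5.50 at PRKACA and 5.49, with H89 alone, at PRKACB. Among the regulatory subunit genes, PRKAR1A stood at 22.3 and 24.8, PRKAR1B at 2.97 and 2.96, and PRKAR2A and PRKAR2B had no summit at the start. Summits are placed here by distance to the implied starts alone, and those at PRKAR1B cannot be told apart from summits of DNAAF5. The order of the starts by score was therefore PRKAR1A, PRKACA and PRKAR1B in the control, and PRKAR1A, PRKACA and PRKACB nearly level, then PRKAR1B with H89. Of the chromosomes that carry these genes, 17 held 8.82 control and 10.7 H89 summits per Mb, 19 held 11.3 and 14.0, 1 held 3.53 and 4.23, 3 held 2.27 and 2.88, and 7 held 2.70 and 3.33. Chromosome 17 is known to be gained in HepG2, and the part of copy number in the PRKAR1A score was not tested. Other genes of the cAMP pathway, such as those for adenylyl cyclases, phosphodiesterases, anchoring proteins and PKA inhibitor peptides, were not analysed here because no hg19 gene annotation was used.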

How the data were processed

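The authors deposited 2 tables of HDAC1 peak summits, 1 per library, listing named 1-bp positions on hg19, each with a score. Names in the tables match the titles of the control and the treated sample. The deposited score is read as −log10 of a p-value, from the values alone. Bowtie 0.12.2 and hg19 come from the submitters' processing notes. For the peak caller, its control and its threshold, the sources used here give nothing, and read totals are unknown. Positions are 1-based.

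The gene windows were given by name with edges in kb, and a gene start was taken as 10 kb inside the edge, with the strand from RefSeq. The members were chosen with earlier results of these data known. Partners are summits within 1000 bp, pairs are mutually nearest partners, and scores within 0.1 count as equal. The named genes are the 6 subunit genes, and other genes appear only as annotated neighbours. Steps were matched within 0.001. Intervals are Clopper-Pearson or exact Poisson. Pairing and step functions were tested on simulated data. Bands came from circlize 0.4.16 and lengths from GenomeInfoDb 1.38.1 (R 4.3.3). Python 3.11.15 was used with scipy 1.17.1, pandas 2.3.3, numpy 2.4.6 and matplotlib 3.10.9. RefSeq promoters matched all 6 genes by symbol.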

Additional observations from a re-analysis of the deposited data

How the results depend on the processing

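Of the 24 values recomputed under alternatives, 21 stayed within the 95% interval of the reported value. Those intervals are wide, so staying within them does not show that a value is stable. For example, 33.3% and 80.0% both lie within the interval of 55.6%. The share of control summits with a partner rose from 71.4% to 100% among summits scoring 5 or more (4 of 4) and within 2 kb of the implied gene starts (3 of 3, a choice made after seeing the data). With the windows shortened by 10 kb at each end it fell to 1 of 2. The share of H89 summits with a partner went from 55.6% to 33.3% (1 of 3) with the shortened windows and to 80.0% (4 of 5) at a score of 5 or more. The share of pairs higher with H89 became 100% with the shortened windows, which left 1 pair, that of PRKAR1A. The ratio of summits ranged from 1.14 with the windows lengthened by 40 kb (14 control and 16 H89 summits) to 3 summits against 2 with them shortened. Pairing distances of 100, 500 and 2000 bp gave the reported shares of summits with a partner. No other outcome was possible, because partners lay 18 to 95 bp apart. The summit without a partner that came closest to the other list was 4.97 kb from it. For pairs, the share higher with H89 was as reported at 500 bp and with score differences up to 0.5 treated as equal. It was not run at the other distances. Neither setting could change this share, because the scores of each pair were equal within 0.1 or differed by more than 0.5. No paired analysis was possible because each condition has a single library. The few summits per locus, the unknown depth and the single libraries limit all values.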
